A study of Solanum lycopersicum with 40 samples.

Results

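Leaf-enriched transcripts of tomato are described here as 200 probe sets, of 10038 on the array once hybridisation and reporter controls were left out. They were chosen from arrays labelled wild type alone. For each probe set, signals under a floor of 50 were set to 50, log2 was taken, and the higher of the ripe fruit and root tip means was subtracted from the leaf mean. The 200 probe sets with the largest of these leaf gaps are the members. The gap chose them, so it is given as a description with no test. It was 7.54 on the log2 scale (187-fold) for CAB5 at rank 1 and 7.52 for Les.3217.2.S1_at at rank 2. The last pair inside the list had gaps of 3.47 and 3.46, and the first pair outside it 3.46 and 3.45.

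Each of 40 Affymetrix tomato arrays carried RNA of 1 sample. The genotypes were the transgenic lines N6 and N7, which express InsP 5-ptase, an inositol polyphosphate 5-phosphatase, a vector control (VC), and wild type (WT). Each genotype had 3 arrays of leaves (first leaves of light-grown seedlings on agar at day 10), 4 of ripe fruit (plants kept 9 weeks in a growth chamber) and 3 of root tips (day 10). The labels name the cultivar Micro-Tom. They do not give the promoter of the transgene or whether plants were pooled, and for root tips they name both light growth and etiolated tissue. Only the fruit titles call replicates biological, so in leaf and root tip the spread behind each p-value may be technical.

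Many transcripts that mark a leaf serve photosynthesis. Chlorophyll a/b-binding proteins form the antennae that pass light energy to the 2 photosystems, the oxygen-evolving complex splits water at photosystem II, and photosystem I reduces ferredoxin. Ripening fruit turns its chloroplasts into chromoplasts and takes these transcripts down. InsP 5-ptase removes a phosphate from inositol trisphosphate, a second messenger in calcium signalling.

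The platform annotation named 22 of the 200 members, for 21 genes, and the other 178 are given by probe set name. The named genes with known roles are the antenna genes CAB4, CAB5 and CAB6A, PsbQ of the oxygen-evolving complex, LOC543978 (psaD, a subunit of photosystem I) and the carbonic anhydrase ca2, which supplies CO2 to carbon fixation. AGPL3 is a large subunit of ADP-glucose pyrophosphorylase, the enzyme that commits glucose to starch, and CRTL-E-1 is lycopene epsilon-cyclase, which leads carotenoids towards lutein. TCP3 is a TCP transcription factor, APX an ascorbate peroxidase that removes hydrogen peroxide, ACO6 a member of the ACC oxidase family, whose enzymes make ethylene, and EXP5 an expansin that loosens cell walls. TLRP is a tyrosine- and lysine-rich cell wall protein, and sbt4a and SBT2 are subtilisin-like proteases.

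The fruit arrays do not all match their labels by the reporter controls. One reporter probe set read 237 to 336 on the 4 fruit arrays labelled N7 and 4.76 to 20.3 on those labelled N6, although it read 107 to 632 on all leaf arrays of both lines. Another read 5161 on the fruit array labelled VC 4 and 1198 to 4416 on the fruit WT arrays, against at most 10.1 on VC 1 to 3. On leaf and root tip arrays, WT included, it read at most 15.6. The fruit WT arrays are therefore in doubt as well, and they entered the choice of members by their labels. Fruit groups are therefore called by their labels, and fruit counts against VC, with most of the named fruit members, are given with and without VC 4. The tissue labels held: 10 green tissue probe sets of a fixed list summed to 58111 to 106365 signal units on leaf arrays and 229 to 611 on root tip arrays, and 8 root markers to 13132 to 18098 on root tip arrays and 761 to 2229 on leaf arrays.

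In the samples that the choice did not use, leaf enrichment persisted in nearly every member. Enrichment was called when leaf exceeded both fruit and root tip within a genotype at an adjusted p under 0.05 (limma, Benjamini-Hochberg adjusted). It was called for all but 1 of the 200 members in N6, all but 1 in N7 and all 200 in VC, where 15.7%, 15.9% and 15.6% of all tested probe sets were called. The median gap was 4.45 in N6, 4.93 in N7 and 4.56 in VC. Many of these gaps are lower bounds, since fruit and root tip both averaged at the floor for 118 members in N6, 105 in N7 and 53 in VC.

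The member that lost enrichment in both lines was Les.4594.1.S1_at, singled out after its values were seen. In leaf it read 169, 93.3 and 82.0 in N6 and 31.0, 62.8 and 666 in N7, against 1052, 978 and 1043 in VC. The N6 arrays lay below every VC array, and in N7 the array N7 3 stood well above the other 2. The N6 difference was -3.23 on the log2 scale (adjusted p = 0.0312) and the N7 difference was -3.001 (adjusted p = 0.0514). Leaf minus fruit was then -0.06 in N6 (adjusted p = 0.996) and 0.18 in N7 (adjusted p = 0.846).

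The share of each array's summed signal that the members took is a level that shows the tissues apart. In leaf it was 9.71% to 10.1% in N6 and 11.1% to 13.9% in N7, against 11.7% to 12.3% in VC and 9.26% to 14.0% in WT. All N6 leaf arrays lay below all VC leaf arrays, while N7 spanned the VC range and the WT range took in all 3 other groups. In fruit it was 0.147% to 0.173% in N6 and 0.162% to 0.2003% in N7, against 0.300% to 0.756% in VC and 0.336% to 0.725% in WT, with no overlap between either line and VC. In root tip it was 0.153% to 0.272% in N6, 0.171% to 0.192% in N7 and 0.146% to 0.206% in VC, which overlap. Whole tissues were measured, so fewer green cells and less RNA per cell cannot be told apart.

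**Figure D1:**
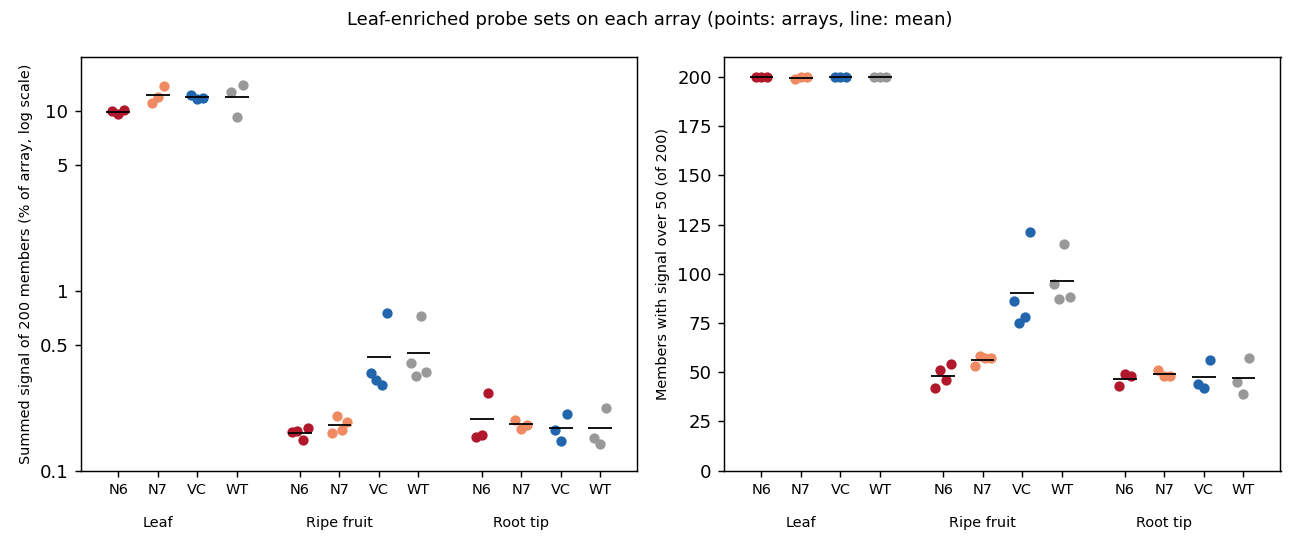
Left, the summed signal of the 200 members as a percent of all signal on each array (log axis); right, the number of members with a signal over 50. Points are arrays and bars are group means; in fruit every N6 and N7 array holds at most 58 members over 50, against at least 75 in VC.

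In leaf, N6 against VC asks whether the transgene line changes transcripts that mark the organ. In N6, 39 of the 200 members fell and 5 rose, all 200 having passed the filter on dim probe sets (a signal over the floor on at least 3 of 9 arrays), where 11.2% of all tested probe sets were called, 5.85% lower and 5.36% higher. The median member difference was -0.31 on the log2 scale, and 171 of 200 members lay below 0. Over all probe sets the median was 0.00, which the floor largely sets, since dim probe sets differ by exactly 0. On 104 members (52%) every N6 array lay below every VC array, a pattern held by 11.8% of all probe sets, and on 9 (4.5%) every N6 array lay above, against 13.5% of all. Such a pattern needs 3 arrays over the floor, so only the 6457 tested probe sets could show it, 1185 of them lower and 1352 higher. All 200 members were tested, so the shares of all 10038 are a low background for them. Members that fell did so by a median of 0.81 on the log2 scale (1.75-fold), and 11 of them fell more than 2-fold.

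The leaf count leaned on single arrays. Without VC 1 it was 16 members (13 lower, at 2.60% of all tested), without N6 2 it was 29 (at 5%), without N6 3 it was 25 (at 5.48%), and without N7 3, which enters through the shared spread, it was 82 (75 lower, at 18.4%). RNA integrity was measured by the log2 ratio of 3' to 5' signal, a mean over control transcripts. This log2 3'/5' ratio was 3.97 to 4.46 in N6 leaves, 4.27 to 4.90 in N7 leaves and 4.37 to 5.07 in VC leaves. With that ratio as a covariate 22 members were called, 19 of them lower, at 3.73% of all tested.

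N7 against VC, which shares the VC arrays, gave 19 called members in leaf, 12 higher and 7 lower, where 7.43% of all tested probe sets were called, 3.73% higher and 3.7% lower. With median scaling the split was 7 higher and 7 lower. Every N7 array lay below every VC array on 22 members (11%), against 9.09% of all probe sets, and above on 28 (14%), against 8%. Only the 6457 tested probe sets could show this, 912 of them lower and 803 higher. Both shares of all are therefore a low background, and the members are not shown to exceed it. Its median member difference was 0.04, with 85 members below 0 and 115 above. The 7 that fell had a median of -1.70 and the 12 that rose a median of 0.90 on the log2 scale. Left-out arrays moved this count to 3 (without VC 1 or without VC 2, at 0.825% of all tested in each), 4 (without N7 2, at 1.31%), 10 (without N6 1, at 5.14%), 11 (without VC 3, at 5.76%) and 42 (without N7 3, at 17.4%).

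Set directly against each other, the lines differed in leaf in 1 direction. N7 exceeded N6 on 46 members and was lower on 0, where 8.07% of all tested probe sets were called, 4.34% higher and 3.73% lower. At an unadjusted p under 0.05, limma gave 102 members (51%), against 29.4% of all tested probe sets. The median difference of N7 minus N6 was 0.36, and on 94 members (47%) every N7 array exceeded every N6 array, against 8.69% of all probe sets. The reverse held on 2 members, against 11.5% of all. Here too only the 6457 tested probe sets could show the pattern, 872 of them higher and 1153 lower. The count was 19 without VC 1 (at 2.9% of all tested), 21 without N6 1 (3.54%), 10 without N6 2 (1.32%), 18 without N6 3 (2.89%), 83 without N7 1 (80 higher, 16.7%) and 13 without N7 2 (2.16%).

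**Figure D2:**
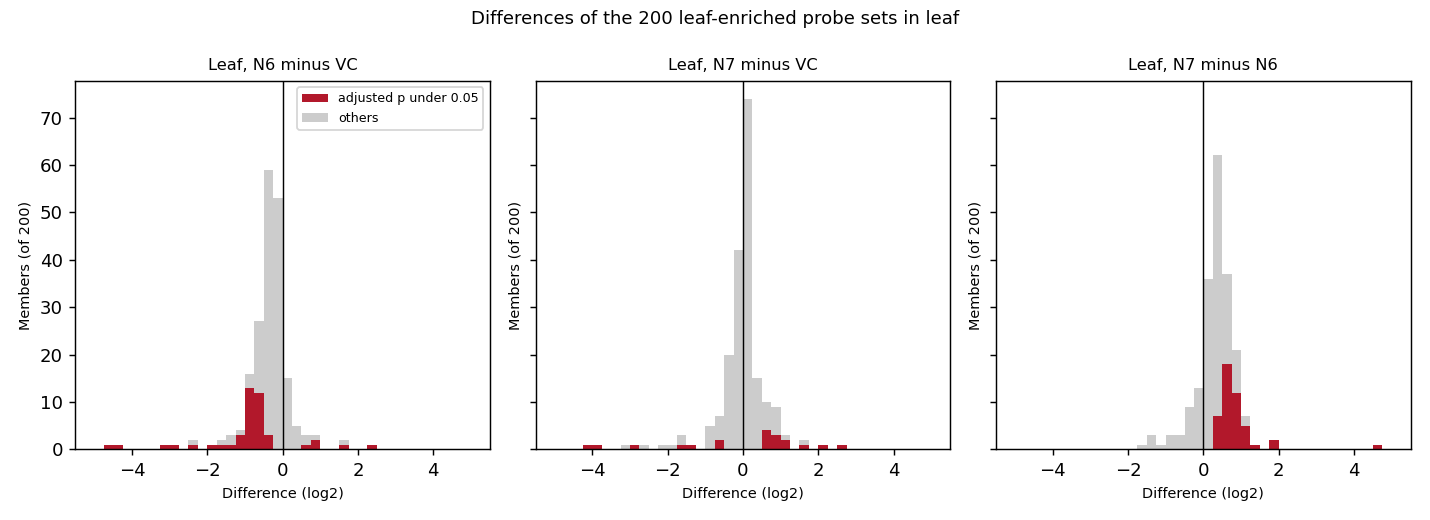
Histograms of the leaf differences of the 200 members on the log2 scale, for N6 minus VC, N7 minus VC and N7 minus N6, with members called at an adjusted p under 0.05 in red. The median is -0.31 in the first panel, 0.04 in the second and 0.36 in the third.

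The brightest members read differently between arrays of the same group. On array WT 3, CAB5, CAB6A, TLRP, PsbQ and CAB4 read between 12286 and 12995, and on WT 2 between 6601 and 8030. The 50th highest signal on an array was 6435 to 7207 in N6 leaves and 7217 to 10051 in N7 leaves, against 7445 to 8443 in VC leaves. For the 23 members with a mean leaf signal over 8000, the median N6 difference was -0.23, beside -0.20 for the 17 other probe sets as bright. After quantile normalization these were -0.01 and 0.03. That method sets the top ranks equal on all arrays, so small differences there were fixed in advance and decide nothing. Members of mean signal 500 to 1000 differed by a median of -0.42 in N6, those of 1000 to 2000 by -0.36 and those of 2000 to 4000 by -0.39, while other probe sets in these bands had medians of 0.02, 0.04 and -0.01. After quantile normalization the members' medians were -0.48, -0.37 and -0.32. Over 8000, members and other probe sets of N6 lay close together, and between 500 and 4000 the members lay below the others in both forms of the data.

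**Figure D3:**
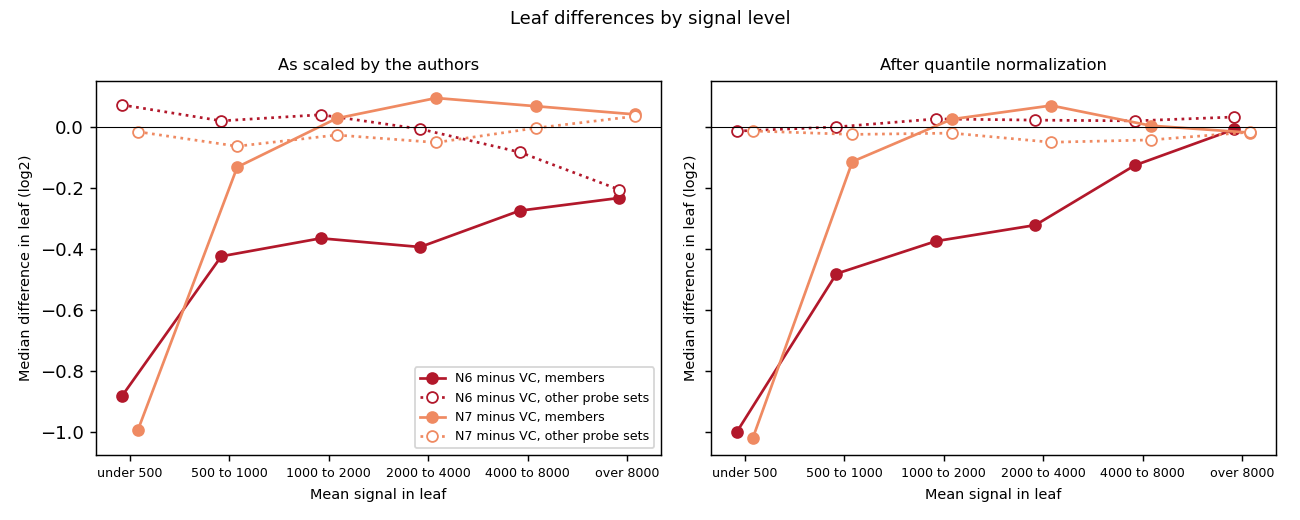
Median leaf difference from VC (log2) in bands of mean leaf signal, for N6 and N7, with members as filled points and other probe sets as open points; left as deposited, right after quantile normalization. Filled N6 points lie below the open ones in all bands under 4000, and meet them over 8000. On the right, small differences over 8000 follow from the method. The band under 500 holds 6 members.

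Among the photosynthesis members, none of the antenna genes passed the test in leaf. CAB5 read 8080, 7200 and 7979 in N6 and 8568, 9978 and 11960 in N7, against 9644, 9064 and 9533 in VC. All N6 values lay below all VC values, as they did for PsbQ. Both genes have a mean leaf signal over 8000, where other probe sets had a median N6 difference of -0.20. The cause was not tested. The N6 difference was -0.28 for CAB5 (adjusted p = 0.163), -0.25 for CAB6A (0.284), -0.21 for CAB4 (0.334) and -0.32 for PsbQ (0.122). The psaD gene LOC543978 differed by -0.09 in N6 (adjusted p = 0.727). For N7 minus VC, these 5 genes lay between 0.01 and 0.10, all with adjusted p of 0.665 or more.

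The carbonic anhydrase ca2 separated the lines. Its leaf signals were 6476, 5766 and 7479 in N7, against 4688, 5259 and 4378 in N6, with no overlap. N7 exceeded N6 by 0.46 on the log2 scale (adjusted p = 0.0448), a call that ended under 13 of 18 alternatives, where adjusted p ran from 0.0393 to 0.304. Of 3 other probe sets annotated as ca2, which are no members, 2 were tested in leaf, at 0.62 (adjusted p = 0.341) and 0.37 (0.478). The starch gene AGPL3 differed from VC by -0.25 in N6 (adjusted p = 0.254) and 0.02 in N7 (0.949). CRTL-E-1 differed by -0.39 (0.164) and -0.13 (0.679).

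APX was the named gene that most clearly set N6 apart from N7 in leaf. It read 601, 495 and 510 in N6 and 1008, 1101 and 1030 in N7, against 1197, 1006 and 985 in VC. The N6 arrays lay below all others of the 3 genotypes, and N7 lay within the VC range. APX fell by 0.99 ± 0.13 (SE) on the log2 scale in N6 (adjusted p = 0.0031), differed by -0.02 in N7 (0.959), and was 0.97 higher in N7 than in N6 (0.00445). With WT arrays in the fit, where WT 2 read 468 and WT 1 and WT 3 read 1488 and 1368, both calls ended (adjusted p = 0.0852 and 0.116).

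TCP3 read 1842, 1887 and 1707 in N6 and 1791, 1634 and 3158 in N7, against 3162, 3054 and 3260 in VC. Every N6 array and the arrays N7 1 and N7 2 lay far below VC, and N7 3 lay at the VC level. TCP3 fell by 0.80 ± 0.21 (SE) in N6 (adjusted p = 0.0382), and its N7 difference was -0.59 (0.118). The N6 call ended under 9 of 18 alternatives, and without N7 3 the N7 difference was -0.88 (adjusted p = 0.000686).

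ACO6 rose in both lines. Its leaf signals were 6226, 4836 and 4836 in N6 and 5368, 9043 and 6000 in N7, against 1401, 1225 and 2555 in VC and 1599, 1303 and 2097 in WT. All 6 line arrays exceeded all control arrays. The difference from VC was 1.68 ± 0.28 (SE) in N6 (adjusted p = 0.0066) and 2.02 ± 0.28 in N7 (adjusted p = 0.00511). In fruit and root tip ACO6 did not pass the filter, and its fruit signals were 15.5 to 33.6 over both lines, against 40.1 to 135 in VC.

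The other named genes did not pass the test in leaf. TLRP differed from VC by -0.18 in N6 and 0.04 in N7, sbt4a by 0.04 and -0.28, and SBT2 by 0.21 and -0.23, with adjusted p between 0.343 and 0.918. EXP5 differed by -0.65 in N6 (adjusted p = 0.299) and -0.06 in N7 (0.945). Its N7 3 array read 449, against 1255 and 1328 on N7 1 and N7 2.

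The largest shifts in leaf were in members without a gene name here. Les.3415.3.S1_at read 249, 358 and 230 in N6 and 147, 200 and 2042 in N7, against 6931, 5257 and 5757 in VC. It fell by 4.44 on the log2 scale in N6 (adjusted p = 0.00905) and by 3.92 in N7 (0.0217), with N7 3 again nearer to VC. These calls ended under 2 and 4 of 18 alternatives, with adjusted p up to 0.0648 and 0.105. Les.2971.2.A1_at read 321, 1783 and 226 in N6 and 168, 125 and 376 in N7, against 4511, 4219 and 2690 in VC. It fell by 2.88 in N6 (adjusted p = 0.0277) and by 4.22 in N7 (0.013), and the WT arrays, at 1324 to 1658, lay below VC and overlapped N6. The N6 call ended under 7 and the N7 call under 3 of 18 alternatives, with adjusted p up to 0.121 and 0.0721.

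Les.1424.2.S1_at, singled out after its values were seen, had the largest fall of any member in N6 leaf. It read 155, 144 and 95.8 in N6 and 3187, 3330 and 2566 in N7, against 3260, 2607 and 3977 in VC and 3136, 1433 and 2908 in WT. N6 stood apart from every other leaf array, and N7 overlapped VC. The difference was -4.65 in N6 (adjusted p = 8.42e-06), -0.10 in N7 (0.814) and 4.55 for N7 minus N6 (5.48e-06). In fruit, where levels were low, the same probe set was lower in both lines, by 1.00 in N6 and 0.93 in N7 on floored values. Most line arrays were under the floor there. It passed the filter on dim probe sets in fruit only with the VC arrays, so these fruit differences are a description.

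On the rising side, Les.4287.1.S1_at read 4461, 1934 and 3492 in N6 and 2158, 4558 and 612 in N7, against 615, 440 and 788 in VC. It rose by 2.38 in N6 (adjusted p = 0.0354), a call that ended under 9 of 18 alternatives, and its N7 difference was 1.61 (0.138), where N7 3 lay within the VC range. Without N7 3 the N7 difference was 2.39 (adjusted p = 0.00514). Also seen after the fact, LOC544312 rose in both lines, reading 5820, 6435 and 6692 in N6 and 6132, 5911 and 4779 in N7, against 3108, 3365 and 3839 in VC. It was 0.88 higher in N6 (adjusted p = 0.00389) and 0.70 higher in N7 (0.0171), of which the N7 call ended under 4 of 18 alternatives (adjusted p up to 0.0767) and the N6 call under 0. In fruit, where VC 4 read 1027, it differed by 0.27 in N6 (adjusted p = 0.784) and -0.87 in N7 (0.259), and without VC 4 by 1.05 (0.00168) and -0.10 (0.737). With the 3'/5' covariate the N7 fruit difference was -2.18 (adjusted p = 0.0024).

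Also singled out after its values were seen, LesAffx.65143.1.S1_at had the largest rise of any member in N7 leaf. It read 3075, 5725 and 6503 in N7, against 924, 929 and 636 in VC, and the N6 arrays, at 1033, 704 and 2861, spanned the space between. The N7 difference was 2.57 (adjusted p = 0.0172), the N6 difference 0.64 (0.403) and N7 minus N6 1.93 (0.038). WT read 2220, 2090 and 4088, so every WT array lay above every VC array. LOC543989 rose in N7 as well, by 0.78 over VC (adjusted p = 0.0446) and 0.79 over N6 (0.0434), calls that ended under 11 and 12 of 18 alternatives.

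**Figure D4:**
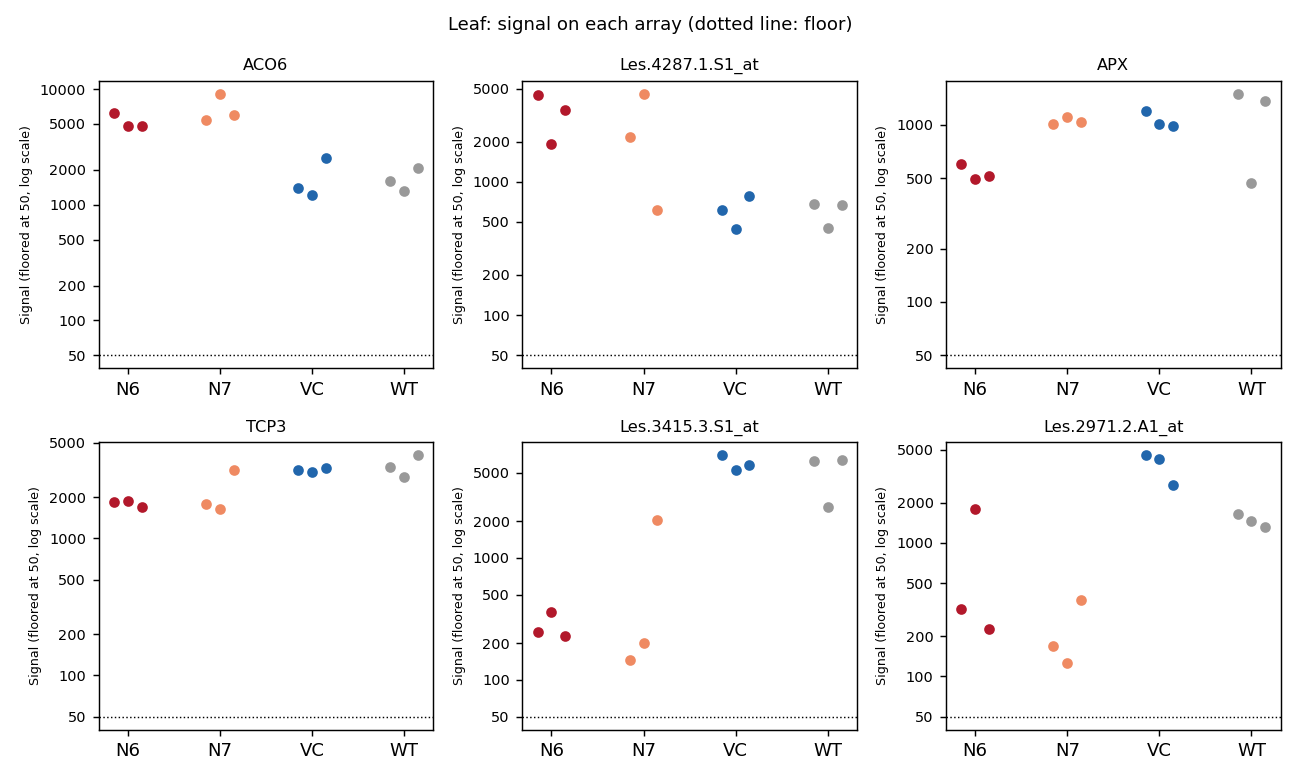
Leaf signal (floored at 50, log axis) of 6 members on each array of N6, N7, VC and WT. ACO6 is higher on all 6 line arrays, APX is lower in N6 only among N6, N7 and VC, and Les.3415.3.S1_at is lower in both lines with N7 3 at 2042.

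In ripe fruit the members are dim, and both lines were lower. The number of members over the floor was 42 to 54 per array in N6 and 53 to 58 in N7, against 75 to 121 in VC and 87 to 115 in WT. Of the 60 members over the floor on all 4 VC arrays, 28 were so on all 4 N6 arrays and 33 on all 4 N7 arrays, while 18 were over it on 0 N6 arrays and 13 on 0 N7 arrays. That is 46.7% and 55% on all 4, and 30% and 21.7% on 0. Of the 5144 probe sets of the whole array over the floor on all 4 VC arrays, 95.3% were so on all 4 N6 arrays and 95.6% on all 4 N7 arrays, and 1.77% and 1.15% were over it on 0. Choosing probe sets by VC leaves only lower values to find, so these shares are a description. VC 4 held 121 members over the floor and WT 3 held 115, and 37 and 39 members there were more than 2-fold above the highest of the other arrays of their group, as were 6.05% and 9.11% of all probe sets. The log2 3'/5' ratio was 2.96 on VC 4 and 2.67 on WT 3, the lowest of their groups. It was 3.25 to 4.04 on the N6 fruit arrays and 2.88 to 3.71 on those of N7, against 4.23 to 4.70 on VC 1 to 3. Without VC 4 the ratio thus set both lines apart from VC. With that ratio as a covariate 51 members were called in fruit N6 against VC (44 lower) and 36 in fruit N7 (33 lower), where 22.2% and 14.4% of all tested probe sets were called.

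The fruit filter (over the floor on at least 4 of 12 arrays) passed 79 members, and a member could pass through VC alone, so counts among those 79 are a description. In N6, 40 members fell and 7 rose, where 19.1% of all tested probe sets were called, 9.23% lower and 9.9% higher. In N7, 39 fell and 4 rose, where 24.3% were called, 9.65% lower and 14.6% higher. Both comparisons use the same VC arrays. Without VC 4, 65 members passed the filter, and 36% and 42.7% of all tested probe sets were called in N6 and N7. Among these members 29 fell and 15 rose in N6, and 28 fell and 8 rose in N7. The N6 count was 28 without VC 1 (at 11.9% of all tested) and 31 without VC 3 (13.7%), and the N7 count was 25 without VC 1 (15%), 28 without VC 2 (19.7%) and 27 without VC 3 (15.5%).

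The median fruit difference of all 200 members was -0.07 in N6 and -0.06 in N7, with 66 and 67 members at exactly 0. Those that fell in N6 had a median of -1.44 on the log2 scale (2.71-fold), and in N7 a median of -1.19 (2.28-fold). Of them, 18 in N6 and 12 in N7 were at the floor on every array of the line, so their differences are lower bounds. Over all 200 members, every N6 array lay below every VC array on 39 (19.5%) and above on 7 (3.5%), against 5.81% and 5.98% of all probe sets. For N7 these were 36 (18%) and 4 (2%), against 5.08% and 7.44%. Splitting all 200 members by mean fruit signal, 16 of the 35 at 100 or more fell in N6 (45.7%), against 402 of 4829 other probe sets (8.32%). In N7, 14 of the 35 fell (40%), against 428 of 4829 others (8.86%). N7 against N6 gave 5 called members, 3 higher and 2 lower, where 2.91% of all tested probe sets were called, 1.98% higher and 0.93% lower. With median scaling 1 was higher and 2 were lower. That count was 12 without VC 4 (at 8.77%), and 3 without N6 3, N7 1, N7 2 or N7 4 (1.25% to 1.44%).

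CAB4, PsbQ and LOC543978, the photosynthesis members that passed the fruit filter, fell in both lines. CAB4 read 42.8, 73.6, 64.9 and 80.6 in N6 and 179, 156, 180 and 130 in N7, against 389, 477, 323 and 273 in VC. The 3 genotypes did not overlap, with N7 between N6 and VC. CAB4 fell by 2.43 ± 0.23 (SE) in N6 (adjusted p = 5.95e-06) and by 1.16 ± 0.23 in N7 (0.00288), and N7 exceeded N6 by 1.27 (0.00801). The difference between the lines lost its call with a floor of 100 (0.67, adjusted p = 0.0628) and with median scaling (1.21, adjusted p = 0.0684). Without VC 4, CAB4 fell by 2.56 in N6 and 1.29 in N7, and the lines differed by 1.27 (adjusted p = 0.00143).

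PsbQ read 35.9, 62.3, 43.5 and 53.1 in N6 and 52.8, 79.0, 76.4 and 41 in N7, against 126, 143, 90.9 and 285 in VC. Each line array lay below each VC array. PsbQ fell by 1.46 in N6 (adjusted p = 0.00297) and 1.22 in N7 (0.00826), and without VC 4 by 1.14 and 0.90. LOC543978 (psaD) read 49.1, 59.5, 49.9 and 66.3 in N6 and 43.2, 69.4, 55.1 and 31.4 in N7, against 118, 178, 107 and 123 in VC. It fell by 1.20 in N6 (adjusted p = 0.000655) and 1.21 in N7 (0.000679), but with a floor of 100 the difference was -0.37 in both (adjusted p = 0.0865 and 0.0751). Without VC 4 it fell by 1.23 and 1.24.

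Probe sets of the wider photosynthetic apparatus gave the same direction. A fixed green tissue list had 10 probe sets on the array, 5 of them members, and 1 of the others (DFR) matched only through a synonym and is no photosynthesis gene. Of the 7 tested in fruit, 7 fell in N6 and 6 in N7, and 0 rose. The non-members among them included PSBP, at -3.39 in N6 and -2.62 in N7, and PSBO, at -2.46 and -1.99, both of the oxygen-evolving complex. In leaf 0 of the 10 were called in either line. The list's summed fruit signal was 5962 to 6805 in N6 and 6998 to 8656 in N7, against 8864 on VC 4 and 15595 to 15989 on VC 1 to 3. In WT it was 8252 to 15000, which overlaps N7. The 4 carbon fixation probe sets tested in leaf stand for only 2 genes, ca2 and LOC543802. Of them 1 fell in N6 and 0 were called in N7. LOC543802, whose wild type leaf gap was -1.18, was the 1 that fell. It was also the 1 tested in fruit, where it was called in neither line. Of the pigment list, with 0 members, 2 of 9 fell in N6 leaf, 3 rose and 1 fell in N7 leaf, and 1 of 8 fell in the fruit of each line.

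Ripening genes did not move together in fruit. Of 14 ripe fruit markers tested, 4 rose and 1 fell in N6, and 1 rose and 2 fell in N7, with a summed signal of 47577 to 60282 in N6 and 41763 to 57716 in N7, against 43628 to 68022 in VC. The same markers summed to 2127 to 2334 in N6 leaves and 1148 to 2043 in N7 leaves, against 608 to 746 in VC leaves, with 9 to 10, 9 to 10 and 10 to 11 of the 15 at the floor, and 2 of 6 tested rose in each line there, ETR4, an ethylene receptor, among them in both (3.60 in N6 and 2.64 in N7). Of 5 root markers tested in leaf, 0 were called in N6 and 2 fell in N7, and of 3 tested in fruit 0 were called. The part of these marker shifts in the members' results was not tested.

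Members without a gene name fell furthest in fruit. Les.4007.1.S1_at read 24.3, 60.0, 37.5 and 53.4 in N6 and 65.0, 64.9, 59.1 and 46.8 in N7, against 806, 808, 669 and 394 in VC. It fell by 3.60 in N6 (adjusted p = 2.5e-07) and 3.44 in N7 (4.03e-07), and without VC 4 by 3.83 and 3.67. Les.3217.1.S1_s_at was under the floor on all 8 line arrays, at most 22.3 in N6 and 35.3 in N7, against 521, 656, 487 and 456 in VC. It was at least 10.5-fold lower in each line against the floor of 50. It passed the filter through the VC arrays alone, so this is a description.

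A few members rose in fruit. Les.3157.1.S1_at read 289, 213, 147 and 189 in N6 and 194, 312, 167 and 302 in N7, against 91.0, 39.4, 78.5 and 53.6 in VC. All line arrays exceeded all VC arrays, and it rose by 1.62 in N6 (adjusted p = 0.00133) and 1.83 in N7 (0.000592), and without VC 4 by 1.52 and 1.73. Les.745.1.A1_at read 256, 247, 224 and 298 in N6 and 96.3, 107, 122 and 102 in N7, against 91.0, 86.9, 58.9 and 102 in VC. It rose by 1.62 in N6 (adjusted p = 9.14e-05), its N7 difference was 0.36 (0.22), and it was 1.26 lower in N7 than in N6 (0.00426). Without VC 4 it rose by 1.72 in N6, and the N7 difference was 0.46 (adjusted p = 0.0816).

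Among members known here by a locus symbol alone, and singled out after their values were seen, LOC543929 and LOC544217 were lower in the fruit of both lines. LOC543929 read 7.04, 15.1, 18.0 and 18.4 in N6 and 55.7, 34.0, 46.9 and 50.4 in N7, against 168, 148, 154 and 36.9 in VC. VC 4 lay among the line arrays and the other VC arrays far above them. LOC543929 passed the fruit filter only with the VC arrays, so its differences are a description. It was at least 2.35-fold lower in N6, whose arrays were all under the floor, and differed by -1.19 in N7, both called. The N7 call ended without a floor (adjusted p = 0.0691) and with the 3'/5' covariate (-0.57, adjusted p = 0.168), and without VC 4 the differences were -1.64 and -1.60. LOC544217 read at most 36.7 on all 8 line arrays and 60.6 to 137 on the VC arrays, through which alone it passed the filter. It was at least 2.03-fold lower in each line, as a description.

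Of the other named genes only TLRP and EXP5 passed the fruit filter. TLRP read 77.0, 36.4, 33.7 and 46.3 in N6 and 188, 215, 207 and 205 in N7, against 172, 49.4, 94.2 and 816 in VC, so VC spanned both lines. Its differences from VC were -1.53 in N6 (adjusted p = 0.0845) and 0.34 in N7 (0.703). Without VC 4 they were -0.74 (0.0805) and 1.13 (0.0109). TLRP was called in N6 under median scaling (-1.71, adjusted p = 0.0326), quantile normalization (-1.71, 0.0368) and the 3'/5' covariate (-2.12, 0.0064), and without VC 2 (-2.09, 0.016). N7 minus N6 was 1.87 (adjusted p = 0.113), which was called without VC 4 (0.00119). EXP5 read 22.6 to 25.6 in N6 and 40.1 to 54.7 in N7, against 42.6 to 72.2 in VC, so every N6 array was under the floor and below every VC array. Its floored differences were -0.23 in N6 (adjusted p = 0.285) and -0.19 in N7 (0.344), and without a floor the N6 difference was -1.22 (0.00651).

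**Figure D5:**
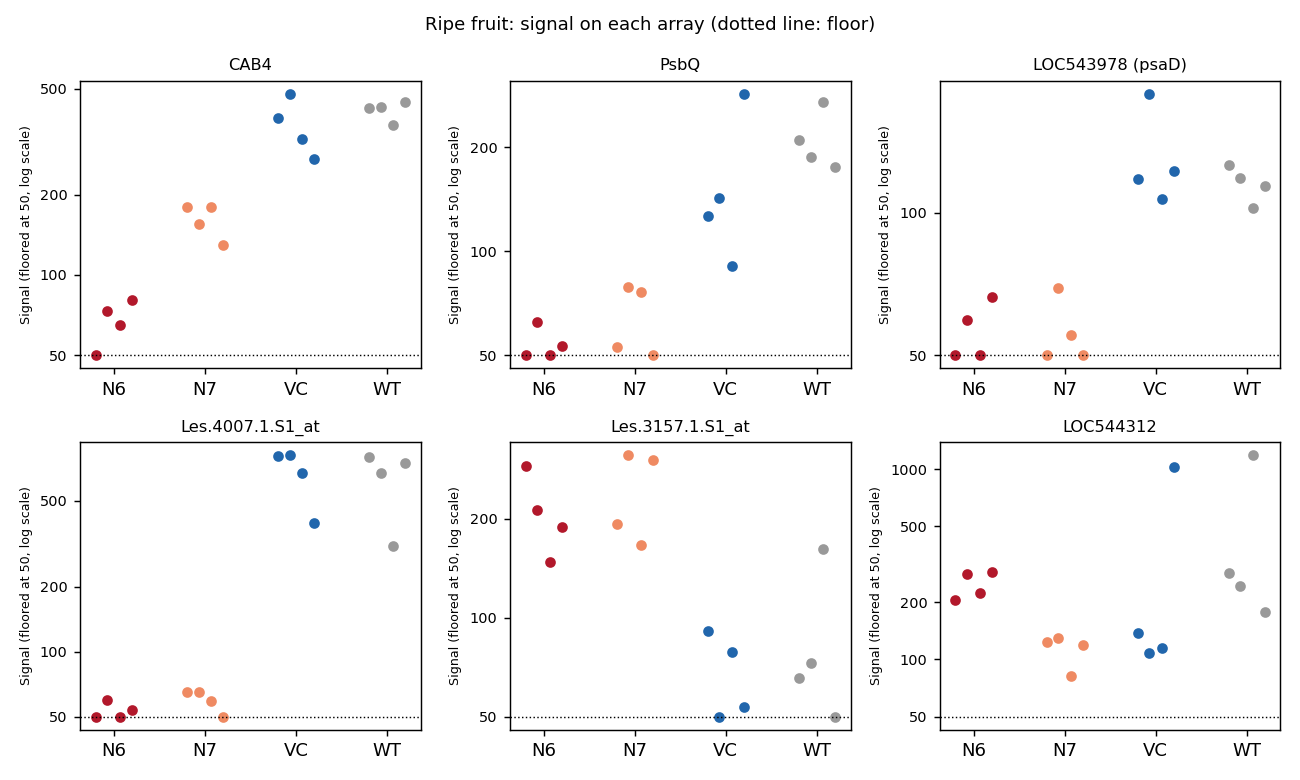
Ripe fruit signal (floored at 50, log axis) of 6 members on each array of N6, N7, VC and WT. CAB4, PsbQ, LOC543978 and Les.4007.1.S1_at are lower on all 8 line arrays than on all VC arrays, Les.3157.1.S1_at is higher, and LOC544312 reads 1027 on VC 4 against 108 to 138 on the other VC arrays.

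Across leaf and fruit of N6, which share no arrays, the falls overlapped in part. Of the 39 members that fell in N6 leaf, 12 were tested in fruit and 9 fell there, which is 23.1% of the leaf list and 22.5% of the 40 that fell in fruit. Over all probe sets, 378 fell in N6 leaf, 273 of them were tested in fruit, and 44 fell in both, 11.6% of the leaf list and 7.91% of the 556 in fruit. The reporter that read 107 or more in N6 leaf read at most 20.3 on the fruit arrays labelled N6, so this sets labels side by side. In N7, 2 of the 7 members that fell in leaf were tested in fruit, and 1 fell there. That is 14.3% of the 7 in leaf and 2.56% of the 39 in fruit. Over all probe sets, 193 of 239 were tested in fruit, and the shares were 12.1% of 239 and 4.99% of 581.

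The line effect, the mean of N6 and N7 minus VC, was tested between tissues in 1 fit over 30 arrays. It differed between leaf and fruit for 36 of 79 members tested in both, 29 of them higher in leaf than in fruit and 7 lower, where 19% of all tested probe sets were called, 8.88% higher and 10.2% lower. The 79 passed the fruit filter, some through VC alone, so this count is a description too: 8 of the 29 were at or under the floor on all 8 line arrays in fruit, and 21 higher and 7 lower remain beside them. That remainder is not free of the filter either. LOC543929, which is in it, was over the floor on fewer line arrays than the filter asks. CAB4 had a leaf effect 1.70 above its fruit effect (adjusted p = 3.03e-05), PsbQ 1.21 (0.00382) and LOC543978 1.17 (0.000203). Between leaf and root tip it differed for 5 of 58 members, 1 higher and 4 lower, where 5.26% were called, 2.95% higher and 2.31% lower. That count was 2 without leaf VC 1 (at 2.94% of all tested) and 3 without root tip VC 1 (4.27%). APX was among the lower ones, at -0.60 (adjusted p = 0.0229).

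In root tip 58 members passed the filter and 0 were called by limma in either line or between the lines, where 0%, 0.0785% and 0.0314% of all tested probe sets were called for N6 against VC, N7 against VC and N7 against N6. At an unadjusted p under 0.05 there were 5, 4 and 2 members (8.62%, 6.9% and 3.45%), against 7.77%, 4.46% and 3.47% of all tested probe sets. Single arrays stood out instead: TLRP read 56.1, 56.4 and 1726 in N6 and 94.7, 23.2 and 70.1 in N7, against 49.8, 13.4 and 438 in VC. LOC544312 read 81.0, 127 and 2189 in N6 and 892, 392 and 311 in N7, against 165, 103 and 863 in VC. The probe sets of LOC778362 read 470 and 261 on N6 3, against at most 38.0 on N6 1 and N6 2. CAB4 read 101 on N6 3, against 67.2 and 62.6, while CAB5 read 1.03 and CAB6A 7.20 there.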

How the data were processed

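The deposited values are intensities on a linear scale, 1 signal per probe set and array, made by the authors with GCOS, per the submitters' processing notes; its version is not given in the sources used here. Every array had a trimmed mean of 500.1 (2% left out at each end), so that scaling was kept. Signals were floored at 50 and log2 was taken. Differences were fitted in R 4.3.3 with limma 3.58.1 (variance trend), per tissue over N6, N7 and VC, on probe sets above the floor on at least 3 arrays (leaf, root tip) or 4 (fruit), with Benjamini-Hochberg adjustment over all tested and calls at an adjusted p under 0.05. Comparisons between tissues used 1 fit of 30 arrays. The script was tested on simulated data. Other floors, filters and scalings, WT in the fit, the 3'/5' ratio and replicate number as covariates, and leaving out each array were tried. Bands of leaf and fruit signal were set after seeing the data.

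Members and gene lists were chosen with earlier results of these data known. Named genes are members with 1 symbol not beginning with LOC, plus the 2 largest called differences per tissue and direction. Of 909 annotated probe sets, 885 matched a gene table of assembly SLM_r2.1, used for names only. The number of arrays limits the precision. Promoter sequence was not analysed here.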

Additional observations from a re-analysis of the deposited data

Results flagged for a closer look

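Fruit array VC 4 read far from the other 3 VC arrays for 5 of the named members and for the members as a whole. CAB6A read 248 there against 29.7 to 50.9 on VC 1 to 3, SBT2 203 against 0.58 to 25.6, LOC778362 (Les.2001.1.S1_s_at) 177 against 34.4 to 56.6, and LOC544312 1027 against 108 to 138. LOC543929 went the other way, at 36.9 against 148 to 168. The members' share of summed signal was 0.756% on VC 4 against 0.300% to 0.348%. In 3 other cases 1 array read over the floor of 50 and the rest of its group were at it or, once, within 1 unit of it, so the floor sets the gap: CAB6A at 51.8 on fruit N7 3, TLRP at 77.0 on fruit N6 1 and LOC543929 at 55.7 on fruit N7 1. Chance marks about 1 in 20 such groups.

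The line effect differed between leaf and fruit for 36 members. Beside those given above, the effect in leaf minus that in fruit was 3.37 for Les.4007.1.S1_at (adjusted p = 3.09e-11), -1.98 for Les.3157.1.S1_at (0.004) and -1.15 for Les.745.1.A1_at (8.78e-05). For LOC543929, which passed the fruit filter only with the VC arrays, it was 1.39, as a description. For Les.3217.1.S1_s_at, under the floor on all 8 line arrays in fruit and tested there through the VC arrays alone, it was at least 3.34, as a description. PsbQ (1.21), CAB4 (1.70) and LOC543978 (1.17) were described with the photosynthesis genes. Between leaf and root tip the effect differed for 5 members, among them APX (-0.60) and Les.4287.1.S1_at (2.40, adjusted p = 0.0205).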

How the results depend on the processing

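No named difference that was called changed sign under the alternatives run. Beside each count of called members, brackets give the share of all tested probe sets called. With a floor of 100, 26 members were called in fruit N6 against VC (20%) and 24 in fruit N7 against VC (24.9%). Fruit N7 against N6 then gave 3 (3.5%) and leaf minus fruit 21 (20.3%). Without a filter on dim probe sets there were 22 in leaf N6 (2.89%), 2 in leaf N7 (0.887%) and 12 in leaf N7 against N6 (1.09%). Leaf minus fruit then gave 64 (12.1%) and leaf minus root tip 24 (3.97%). Without a floor, leaf minus root tip gave 1 (3.83%), and median scaling gave 3 in fruit N7 against N6 (1.8%). WT arrays in the fit gave 14 in leaf N7 against N6 (4.48%). The 3'/5' covariate gave 22 in leaf N6 (3.73%) and 19 in leaf N7 against N6 (2.32%). The replicate block gave 17 in leaf N7 against N6 (2.85%) and 3 for leaf minus root tip (4.2%). It moved no other count by over 1.5 times. Same-numbered replicates did not deviate together in leaf (0 of 9 correlations over 0.1). In fruit 6 of 12 and in root tip 5 of 9 were over 0.1, while differently numbered ones reached 0.492 and 0.703. Replicate number was not taken as a pairing in the main fits. The cause was not tested.

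Leaving out 1 array at a time gave 16 to 82 called members in leaf N6, 3 to 42 in leaf N7, 10 to 83 in leaf N7 against N6, 28 to 47 in fruit N6, 25 to 43 in fruit N7, 3 to 12 in fruit N7 against N6, 25 to 37 for leaf minus fruit and 2 to 6 for leaf minus root tip. Leaf enrichment stayed called for all 200 members in VC, all but 1 in N6 and all but 1 to 3 in N7, and root tip counts stayed at 0. Among named genes, 92 of the alternative fits ended a call, 31 made one, 16 moved an uncalled value by more than its spread and 2732 did none of these. Under median scaling the median of all probe sets shifted by -0.11 in leaf N6 minus VC. A member list chosen without fruit WT 3 shared 191 of 200. With 3 or 4 arrays a group, and most members at the floor in fruit and root tip, smaller differences could not be seen.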
